A study of Gallus gallus with 6 samples.

Results

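The genes described here were at the bottom of the expression range in lens epithelial cells and clearly present in lens fiber cells of the chick at embryonic day 13. They were chosen from the deposited table of FPKM (fragments per kilobase of transcript and mapped fragment total, a level scaled to transcript length and to the library). A gene was taken if it had a symbol not starting with HB, CLIC, KCN or COL, at least 3 FPKM in all 3 fiber libraries and less than 0.5 FPKM in all 3 epithelial libraries. Of 16561 entries in the table, 12921 had a symbol, and 14 genes at 14 loci met these conditions. They were MFSD2B, PAQR5, CLDN1, DEUP1, INA, PSTPIP2, ARHGEF37, AHSG, FAM69C, FBLN5, HPSE, SAMD10, IFIH1 and ESRRB.

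The fiber libraries came from dissected peripheral and central fibers, and the epithelial libraries from the central and equatorial epithelium of the same kind of lens. Both groups were untreated White leghorn embryos at embryonic day 13, and each of the 3 biological replicates per cell type was RNA pooled from many lenses, so the spread between embryos cannot be seen. Only this stage was sampled, so that the values compare neighboring cell populations of the lens and do not follow cells in time. In tissue RNA, fewer cells of a type and less RNA per cell cannot be told apart.

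The lens grows throughout life as epithelial cells at its equator leave the cell cycle, elongate and become fiber cells. Fiber cells pack their cytoplasm with crystallins, build a cytoskeleton of beaded filaments, join their membranes tightly to those of their neighbors and finally lose their nuclei and organelles. The genes described here are not the crystallins, connexins and filament proteins for which fiber cells are best known. Most of them are known from other places, such as red cells, neurons, liver, multiciliated epithelia and antiviral defense.

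The deposited FPKM of a library summed to between 221749 and 232329 in fiber cells and to between 213591 and 220089 in epithelial cells. Entries at or above 1 FPKM numbered 8648 to 8913 in fiber libraries and 10128 to 10188 in epithelial libraries. The table gives no read counts, so the depth behind each value is unknown and the error was taken from the replicates. A value listed as 0.0001 stands for 0. Of 11 lens fiber markers, 10 were called higher in fiber cells, and all 11 were after each library was centred on its median. Of 9 lens epithelial markers, 8 were called lower in fiber cells, the exception being DKK3, with a log2 fold change of 0.50 (limma, adjusted p = 0.00266), and 7 were called lower after centring. The shares over all tested entries were 13.1% higher and 57.7% lower, and 30.2% and 29.3% after centring.

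The summed level of the 14 genes was 131, 160 and 131 FPKM in fiber replicates 1, 2 and 3, against 1.65, 1.77 and 2.46 FPKM in epithelial replicates 1, 2 and 3. This was 0.0586%, 0.0688% and 0.0591% of the FPKM of the fiber libraries, against 0.000759% to 0.00115% in the epithelial libraries. The genes were therefore a very small part of either transcriptome. Their mean fiber levels lay between 3.45 FPKM for HPSE and 28.9 FPKM for MFSD2B, with a median of 7.15 FPKM, and they stood above 64.3% to 95.1% of the entries with a symbol. Of the 14 genes, 6 averaged at least 10 FPKM in fiber cells and 9 averaged at least 5 FPKM.

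**Figure D1:**
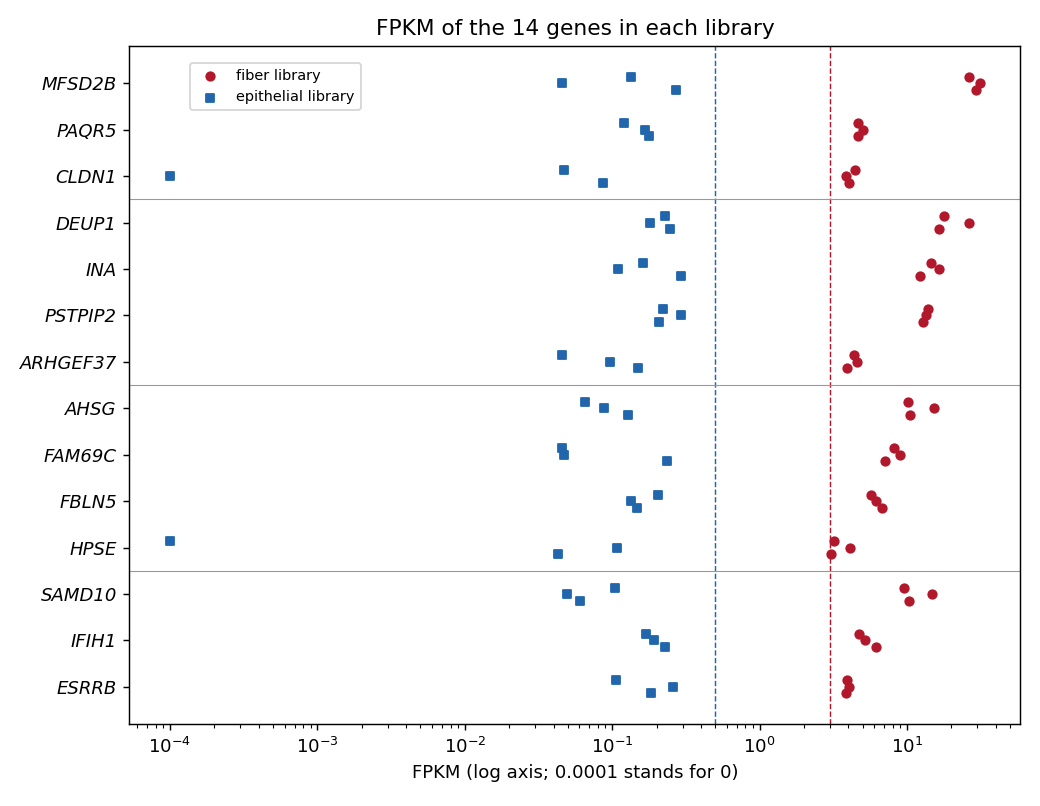
FPKM of each of the 14 genes (log axis) in the 3 fiber libraries (red circles) and the 3 epithelial libraries (blue squares), with lines between groups of genes by role and dashed lines at the thresholds of 3 and 0.5 FPKM. The highest epithelial value is 0.291 FPKM and the lowest fiber value is 3.05 FPKM, and CLDN1 and HPSE have 1 epithelial library each listed at 0.

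Fold changes are given on the scale of log2(FPKM + 0.1), fiber over epithelial cells, which understates the ratio for genes with low epithelial values. The log2 fold changes of the 14 genes ranged from 3.87 to 6.95, with a median of 5.11, against a median of -0.62 over the 10818 entries tested. Relative to the median gene they ranged from 4.48 to 7.56, with a median of 5.72. The rule used the same values. It fixed in advance that the 14 genes pass the filter of a mean of 0.5 FPKM and have a log2 fold change above 0.4. Calls of the 14 genes are therefore not counted, and no test of them is given. Of all tested entries, 13.1% were called higher in fiber cells (limma, adjusted p below 0.05 and log2 fold change above 0.4) and 57.7% lower. After each library was centred on its median over the tested entries, these shares were 30.2% and 29.3%.

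In the epithelium the genes were low and mostly not absent. All of them except CLDN1 and HPSE had values above 0 in every epithelial library. The lowest fiber value was between 14.8 times the highest epithelial value, for ESRRB, and 95.9 times, for MFSD2B. Among entries with a symbol, 4597 had at least 3 FPKM in all fiber libraries and 3078 were below 0.5 FPKM in all epithelial libraries, so that meeting both conditions was uncommon. With the cell types exchanged, the same thresholds were met by 44 entries at 43 loci.

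**Figure D2:**
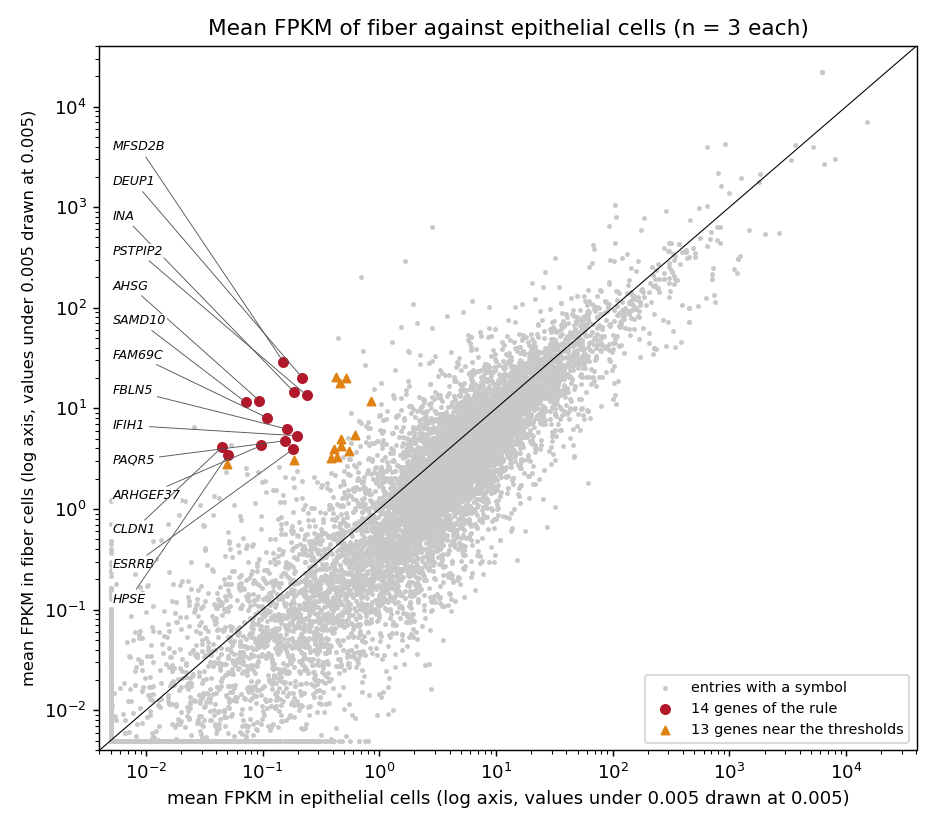
Mean FPKM in fiber cells (vertical, log axis) against mean FPKM in epithelial cells (horizontal, log axis), n = 3 libraries each, for all entries with a symbol (gray), the 14 genes (red) and 13 genes close to the thresholds (orange triangles), with the line of equal levels. The 14 genes average 3.45 to 28.9 FPKM in fiber cells and no more than 0.240 FPKM in epithelial cells.

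Among the genes of the plasma membrane and lipid signaling, MFSD2B (ENSGALG00000016498) encodes a transporter that exports sphingosine 1-phosphate, a signaling lipid, from red cells and platelets in mammals. MFSD2B was listed at 26.1, 31.3 and 29.2 FPKM in fiber replicates 1, 2 and 3, against 0.135, 0.0458 and 0.273 FPKM in epithelial replicates 1, 2 and 3. It averaged 28.9 ± 2.58 FPKM in fiber cells and 0.151 ± 0.114 FPKM in epithelial cells (SD, n = 3 each), a log2 fold change of 6.95 (SE 0.30). It had both the highest fiber level and the largest fold change of the 14 genes. The fold change over the 9 pairs of a fiber and an epithelial library ran from 6.14 to 7.75, most of the spread lying in the low epithelial values.

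Of 20 other genes of sphingosine 1-phosphate metabolism and signaling in the table, 14 were tested, of which 1 was called higher, 8 were called lower and 5 were not called, the median of their log2 fold changes being -0.92. Over all tested entries 13.1% were called higher and 57.7% lower. SPHK1, a kinase that makes sphingosine 1-phosphate, was the gene called higher, with 11.2 ± 1.68 FPKM in fiber cells and 1.04 ± 0.136 FPKM in epithelial cells (SD, n = 3 each), a log2 fold change of 3.30 (limma, adjusted p = 2.04e-06). The receptor gene S1PR3 had 0.375 ± 0.167 FPKM in fiber cells and 5.24 ± 0.167 FPKM in epithelial cells (SD, n = 3 each; limma, log2 fold change -3.55, adjusted p = 9.1e-06). DEGS1, a desaturase of ceramide synthesis, fell by 2.86 on the log2 scale, and SGPL1, the lyase that degrades sphingosine 1-phosphate, fell by 1.34. SPNS2, the exporter of endothelial cells in mammals, was low in both cell types, at 0.115 ± 0.0448 FPKM in fiber cells and 0.0453 ± 0.0514 FPKM in epithelial cells (SD, n = 3 each). After centring each library on its median, 3 of these genes were called higher and 6 lower, against 30.2% and 29.3% of all tested entries.

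Because MFSD2B is known from red cells, the red cell markers are given with it. Of 11 markers in the table, 4 were tested, of which 3 were called higher in fiber cells (HBZ, HBAA and ANK1) and 1 lower (EPB42). The shares over all tested entries were 13.1% higher and 57.7% lower. Their summed level was 9.40 to 15.6 FPKM in fiber libraries and 2.03 to 2.62 FPKM in epithelial libraries. RHAG was listed at 0 in every library, TAL1 was at 0 in all fiber libraries, and SLC4A1, the anion exchanger of red cells, did not exceed 0.0074 FPKM in a fiber library. HBAD, a globin gene that was not tested, averaged 0.679 FPKM in fiber cells and 0.0317 FPKM in epithelial cells. HBZ, the largest of the globin values, had 7.50, 6.73 and 5.29 FPKM in fiber replicates 1, 2 and 3, which is below the level of MFSD2B in the same libraries. The part of red cell RNA in the MFSD2B values was not tested.

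PAQR5 (ENSGALG00000008077) encodes a membrane receptor that binds progestins. It was listed at 4.65, 5.01 and 4.62 FPKM in fiber replicates 1, 2 and 3, against 0.120, 0.168 and 0.176 FPKM in epithelial replicates 1, 2 and 3. The fiber libraries were close together, with a coefficient of variation of 4.57%, and the log2 fold change was 4.26. An entry without a symbol, ENSGALG00000046988, carried the same values in all 6 libraries, so the value cannot be assigned to PAQR5 alone. Of the other PAQR genes, looked up after the values of the 14 genes were seen, PAQR7 was called higher in fiber cells, with 5.25 ± 0.221 FPKM in fiber cells and 1.59 ± 0.588 FPKM in epithelial cells (SD, n = 3 each; limma, log2 fold change 1.71, adjusted p = 0.000177). PAQR8 and PAQR3 were called lower, with log2 fold changes of -0.95 and -0.69. Neither was called after centring, and the sign of PAQR8 turned with quantile normalization.

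CLDN1 (ENSGALG00000026862) encodes claudin-1, a strand protein of tight junctions, which seal the space between epithelial cells. CLDN1 was listed at 4.41, 3.83 and 4.03 FPKM in fiber replicates 1, 2 and 3, against 0.0474, 0 and 0.0865 FPKM in epithelial replicates 1, 2 and 3. Its log2 fold change of 4.90 depended on the added 0.1 FPKM more than that of most of the genes and was 6.74 with 0.01 FPKM added. Of 15 other claudin entries, a family looked up after the values were seen, 4 were tested. None was called higher, 2 were called lower and 2 were not called, beside 13.1% higher and 57.7% lower over all tested entries. CLDN5 had 0.127 ± 0.139 FPKM in fiber cells and 2.14 ± 0.238 FPKM in epithelial cells (SD, n = 3 each; limma, adjusted p = 0.000162). CLDN12 had 3.25 ± 0.254 FPKM in fiber cells and 13.6 ± 1.38 FPKM in epithelial cells (SD, n = 3 each; limma, adjusted p = 3.96e-06). After centring, 1 claudin was called higher and 2 lower, against 30.2% and 29.3% of all tested entries.

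Of the genes of the cytoskeleton and the centriole, DEUP1 (ENSGALG00000044263) encodes the scaffold of the deuterosome, a body found in mouse multiciliated cells on which many new centrioles form at once. DEUP1 was listed at 17.7, 26.5 and 16.5 FPKM in fiber replicates 1, 2 and 3, against 0.228, 0.179 and 0.248 FPKM in epithelial replicates 1, 2 and 3. It averaged 20.3 ± 5.47 FPKM in fiber cells and 0.218 ± 0.0352 FPKM in epithelial cells (SD, n = 3 each), a log2 fold change of 5.97 (SE 0.20). Its fiber libraries were the most spread of the 14 genes, with a coefficient of variation of 27.0%, since replicate 2 stood above the others. CEP63, its paralog in centriole duplication, went the other way, with 0.841 ± 0.220 FPKM in fiber cells and 1.32 ± 0.151 FPKM in epithelial cells (SD, n = 3 each; limma, log2 fold change -0.62, adjusted p = 0.0294), and was not called after centring.

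Of 14 other multiciliation and deuterosome genes, 8 were tested, of which 2 were called higher (TP73 and RFX2) and 6 lower. Their median log2 fold change was -0.72, beside shares of 13.1% higher and 57.7% lower over all tested entries. After centring, 2 were called higher and 3 lower, against 30.2% and 29.3% of all tested entries. CDC20B, whose protein is part of the deuterosome in multiciliated cells, and the regulator gene GMNC were listed at 0 in all 6 libraries. FOXJ1, the master regulator of motile cilia, was at 0.0363, 0 and 0.0959 FPKM in fiber replicates 1, 2 and 3, against 0.0917, 0.0966 and 0.123 FPKM in epithelial replicates 1, 2 and 3. Over 13 markers of multiciliated cells the summed level was 9.17 to 9.63 FPKM in fiber libraries and 19.2 to 22.1 FPKM in epithelial libraries, and of the 5 tested none was called higher and 4 were called lower, or 2 after centring.

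TP73, a p53 family transcription factor that acts upstream of multiciliation in the mouse, had 3.97, 9.33 and 6.76 FPKM in fiber replicates 1, 2 and 3, against 0.864, 0.761 and 0.691 FPKM in epithelial replicates 1, 2 and 3. Its log2 fold change was 2.88 (limma, adjusted p = 4.42e-05), and an entry without a symbol carried the same values. RFX2, a transcription factor of ciliary genes, averaged 3.88 ± 0.397 FPKM in fiber cells and 1.31 ± 0.472 FPKM in epithelial cells (SD, n = 3 each; limma, log2 fold change 1.54, adjusted p = 0.000458). Its relative RFX3 fell by 2.09 on the log2 scale, with 0.743 ± 0.0375 FPKM in fiber cells and 3.48 ± 0.224 FPKM in epithelial cells (SD, n = 3 each; limma, adjusted p = 6.78e-06). CDK1, the mitotic kinase that is also used in centriole amplification, had 0.488 ± 0.108 FPKM in fiber cells and 6.14 ± 0.661 FPKM in epithelial cells (SD, n = 3 each; limma, adjusted p = 2.98e-06).

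In ordinary centriole duplication, 19 of 20 genes found were tested, of which 2 were called higher, 16 lower and 1 was not called. Their median log2 fold change was -1.18, and 13.1% of all tested entries were called higher and 57.7% lower. After centring, 3 were called higher and 11 lower, against 30.2% and 29.3% of all tested entries. SASS6, which builds the cartwheel of a new centriole, was among the genes called higher, with 66.4, 82.0 and 60.8 FPKM in fiber replicates 1, 2 and 3, against 2.13, 1.89 and 2.24 FPKM in epithelial replicates 1, 2 and 3 (limma, log2 fold change 4.99, adjusted p = 3.91e-07). PLK4, the kinase that starts centriole duplication, had 0.0918 ± 0.0225 FPKM in fiber cells and 1.59 ± 0.189 FPKM in epithelial cells (SD, n = 3 each; limma, log2 fold change -3.14, adjusted p = 1.07e-05). Another entry carried the same values, so they cannot be assigned to PLK4 alone. STIL, its partner, fell by 2.42 on the log2 scale. Fiber cells thus had high levels of DEUP1 and SASS6 and low levels of PLK4 and STIL.

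INA (ENSGALG00000051676) encodes alpha-internexin, an intermediate filament protein of neurons that assembles with the neurofilament proteins. INA was listed at 14.5, 16.6 and 12.3 FPKM in fiber replicates 1, 2 and 3, against 0.161, 0.109 and 0.291 FPKM in epithelial replicates 1, 2 and 3. It averaged 14.5 ± 2.15 FPKM in fiber cells and 0.187 ± 0.0941 FPKM in epithelial cells (SD, n = 3 each), a log2 fold change of 5.70. The epithelial value of 0.291 FPKM in replicate 3 was the highest of any of the 14 genes in an epithelial library.

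Of 13 other intermediate filament entries, 8 were tested, of which 3 were called higher, 4 lower and 1 was not called. The shares over all tested entries were 13.1% higher and 57.7% lower. The 8 entries had a median log2 fold change of -0.32 as deposited and 0.29 after centring. NEFL, the light neurofilament protein, was among those called higher, at 3.85, 6.14 and 5.21 FPKM in fiber replicates 1, 2 and 3, against 0.668, 0.262 and 0.680 FPKM in epithelial replicates 1, 2 and 3 (limma, log2 fold change 3.08, adjusted p = 5.99e-05). The other neurofilament genes were not: NEFM averaged 0.148 ± 0.0750 FPKM in fiber cells and 0.116 ± 0.0204 FPKM in epithelial cells (SD, n = 3 each), and NEFH was listed at 0 in all libraries. The 2 others called higher encode the lens beaded filament. BFSP1 averaged 3992 ± 271 FPKM in fiber cells and 642 ± 203 FPKM in epithelial cells, and CP49 averaged 1047 ± 119 FPKM in fiber cells and 106 ± 30.2 FPKM in epithelial cells (SD, n = 3 each). VIM, the vimentin gene, was not called, with a log2 fold change of 0.21 (limma, adjusted p = 0.1003), and was called higher after centring. SYNM, LMNB1 and both LMNA entries were called lower. After centring, 4 entries were called higher and 3 lower, against 30.2% and 29.3% of all tested entries, and SYNM was no longer among the calls. In FPKM, INA was a minor filament transcript of fiber cells beside BFSP1, CP49 and VIM.

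PSTPIP2 (ENSGALG00000040136) encodes a protein with an F-BAR domain, a module that binds curved membrane, and is known from macrophages, where its loss causes bone inflammation in the mouse. PSTPIP2 was listed at 13.95, 13.4 and 12.9 FPKM in fiber replicates 1, 2 and 3, against 0.222, 0.291 and 0.208 FPKM in epithelial replicates 1, 2 and 3. It averaged 13.4 ± 0.536 FPKM in fiber cells and 0.240 ± 0.0445 FPKM in epithelial cells (SD, n = 3 each), a log2 fold change of 5.32. The fiber libraries differed little, with a coefficient of variation of 3.99%.

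Of 16 other F-BAR genes, 13 were tested, of which 1 was called higher, 6 lower and 6 were not called. The shares over all tested entries were 13.1% higher and 57.7% lower. The 13 genes had a median log2 fold change of -0.54 as deposited and 0.07 after centring. PACSIN3, which shapes caveolae in muscle, was the gene called higher, with 36.7 ± 4.97 FPKM in fiber cells and 1.81 ± 0.0522 FPKM in epithelial cells (SD, n = 3 each; limma, log2 fold change 4.26, adjusted p = 3.91e-07). SRGAP1, a GTPase-activating protein of the Slit-Robo pathway, had 3.48 ± 0.644 FPKM in fiber cells and 9.52 ± 0.338 FPKM in epithelial cells (SD, n = 3 each; limma, adjusted p = 4.91e-05). PSTPIP1, the closest relative of PSTPIP2, was low in both, at 0.0791 ± 0.0391 FPKM in fiber cells and 0.302 ± 0.0482 FPKM in epithelial cells (SD, n = 3 each). After centring, 4 F-BAR genes were called higher and 3 lower, against 30.2% and 29.3% of all tested entries.

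Because PSTPIP2 is known from macrophages, the immune markers are given with it. Their summed level was 5.41 to 6.07 FPKM in fiber libraries and 5.90 to 6.62 FPKM in epithelial libraries. Of 15 marker entries, 12 were under 0.5 FPKM in all libraries and 3 were tested, of which CD3E and LAPTM5 were called higher and CD74 lower. The shares over all tested entries were 13.1% higher and 57.7% lower. The macrophage markers SPI1 and C1QA did not exceed 0.0218 and 0.0344 FPKM in a fiber library, and CSF1R was at 0.136 to 0.179 FPKM in fiber libraries and at 0.242 to 0.335 FPKM in epithelial libraries. CD3E, a subunit of the T cell receptor complex, had 2.08, 2.90 and 2.67 FPKM in fiber replicates 1, 2 and 3, against 0.0265, 0.119 and 0.0721 FPKM in epithelial replicates 1, 2 and 3, while CD4 and CD8A were at 0 in all fiber libraries.

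ARHGEF37 (ENSGALG00000039652) belongs to a family of guanine nucleotide exchange factors, which switch on small GTPases. It was listed at 4.37, 4.60 and 3.89 FPKM in fiber replicates 1, 2 and 3, against 0.0456, 0.0969 and 0.151 FPKM in epithelial replicates 1, 2 and 3. Its log2 fold change was 4.50, and the libraries of the cell types lay far apart, as the rule required.

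Of the genes of secreted proteins and the secretory pathway, AHSG (ENSGALG00000008601) encodes fetuin-A, a cystatin-related plasma protein made by the liver that keeps calcium phosphate in solution. AHSG was listed at 10.1, 15.2 and 10.4 FPKM in fiber replicates 1, 2 and 3, against 0.0652, 0.0882 and 0.128 FPKM in epithelial replicates 1, 2 and 3. It averaged 11.9 ± 2.84 FPKM in fiber cells and 0.0939 ± 0.0319 FPKM in epithelial cells (SD, n = 3 each), a log2 fold change of 5.94. Of 9 markers of hepatocytes, 2 were tested (TF and APOA1) and both were called lower in fiber cells, APOA1 alone after centring. The values of TF were shared with another entry. The share called lower over all tested entries was 57.7%, and 29.3% after centring. The 9 markers had a summed level of 4.55 to 5.31 FPKM in fiber libraries and 11.3 to 15.5 FPKM in epithelial libraries. Albumin (ALB) was at 0.0594 ± 0.0250 FPKM in fiber cells and 0.394 ± 0.162 FPKM in epithelial cells (SD, n = 3 each), and TTR and FGA were at 0 in all fiber libraries.

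Of 8 other cystatin superfamily genes, 3 were tested, of which 2 were called higher and 1 was not called. The share called higher over all tested entries was 13.1%. CSTB, an inhibitor of lysosomal proteases, had 12.7 ± 1.57 FPKM in fiber cells and 7.15 ± 0.195 FPKM in epithelial cells (SD, n = 3 each; limma, log2 fold change 0.81, adjusted p = 0.000233). RARRES1, a retinoic acid responsive gene, had 3.54, 4.36 and 1.43 FPKM in fiber replicates 1, 2 and 3, against 0.431, 0.575 and 0.676 FPKM in epithelial replicates 1, 2 and 3 (limma, log2 fold change 2.16, adjusted p = 0.00102). FETUB, the paralog beside AHSG on the chromosome, averaged 0.0602 ± 0.0220 FPKM in fiber cells and was at 0, 0 and 0.0387 FPKM in epithelial replicates 1, 2 and 3. After centring, all 3 tested genes were called higher, against 30.2% of all tested entries.

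FAM69C (ENSGALG00000013703, also named DIPK1C) encodes a kinase-like protein of the secretory pathway. FAM69C was listed at 8.10, 9.02 and 7.13 FPKM in fiber replicates 1, 2 and 3, against 0.0458, 0.0472 and 0.234 FPKM in epithelial replicates 1, 2 and 3. It averaged 8.08 ± 0.943 FPKM in fiber cells and 0.109 ± 0.108 FPKM in epithelial cells (SD, n = 3 each), a log2 fold change of 5.40. Of 10 relatives in the FAM69 and FAM20 families, 8 were tested, of which FAM20A was called higher and the other 7 lower. Their median log2 fold change was -0.96, beside shares of 13.1% higher and 57.7% lower over all tested entries. FAM20A, which acts with the kinase FAM20C in enamel in mammals, had 2.63 ± 0.508 FPKM in fiber cells and 0.933 ± 0.215 FPKM in epithelial cells (SD, n = 3 each; limma, log2 fold change 1.41, adjusted p = 0.000369). FAM20C itself fell by 0.96 on the log2 scale and was not called after centring. With centring, 1 gene was called higher and 3 lower, against 30.2% and 29.3% of all tested entries.

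FBLN5 (ENSGALG00000010747) encodes fibulin-5, a secreted protein needed to assemble elastic fibers in the mouse. FBLN5 was listed at 5.70, 6.16 and 6.82 FPKM in fiber replicates 1, 2 and 3, against 0.205, 0.135 and 0.148 FPKM in epithelial replicates 1, 2 and 3. It averaged 6.23 ± 0.561 FPKM in fiber cells and 0.163 ± 0.0374 FPKM in epithelial cells (SD, n = 3 each), a log2 fold change of 4.60. The other elastic fiber genes went against it. Of 18 found, 12 were tested, of which none was called higher, 11 were called lower and 1 was not called, the median of their log2 fold changes being -2.34, and after centring 10 were still called lower and none higher. In the all-gene comparison, 57.7% of entries were called lower, and 29.3% after centring.

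Among the elastic fiber genes, EMILIN2 had 1.05 ± 0.605 FPKM in fiber cells and 31.9 ± 2.46 FPKM in epithelial cells (SD, n = 3 each; limma, log2 fold change -4.94, adjusted p = 9.11e-06). EFEMP1, another fibulin, had 0.599 ± 0.0342 FPKM in fiber cells and 17.8 ± 4.25 FPKM in epithelial cells (SD, n = 3 each; limma, log2 fold change -4.65, adjusted p = 9.65e-07). LTBP1, which ties latent TGF-beta to microfibrils, fell by 3.17 and FBN1, the main microfibril protein, fell by 2.07 on the log2 scale. ELN, the elastin gene, was listed at 0 in all fiber libraries and averaged 0.00647 FPKM in epithelial cells. FBLN1, a fibulin also looked up as a family after the values were seen, was called lower as well.

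HPSE (ENSGALG00000011203) encodes heparanase, which cuts the heparan sulfate chains of proteoglycans. HPSE was listed at 3.17, 4.12 and 3.05 FPKM in fiber replicates 1, 2 and 3, against 0, 0.108 and 0.0432 FPKM in epithelial replicates 1, 2 and 3. Its log2 fold change was 4.61, and 6.43 with 0.01 FPKM added in place of 0.1. Of 10 syndecan, glypican and heparanase genes, looked up after the values were seen, 6 were tested. None was called higher, 5 were called lower and 1 was not called, beside 13.1% higher and 57.7% lower over all tested entries. GPC4, which carries heparan sulfate, had 0.921 ± 0.421 FPKM in fiber cells and 13.5 ± 1.16 FPKM in epithelial cells (SD, n = 3 each; limma, log2 fold change -3.80, adjusted p = 8.45e-06). SDC1 and SDC4, the syndecans, fell by 2.91 and 2.62 on the log2 scale. After centring, 1 of these genes was called higher and 4 lower, against 30.2% and 29.3% of all tested entries.

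Of the genes of the nucleus and of RNA sensing, IFIH1 (ENSGALG00000041192) encodes MDA5, a receptor for double-stranded RNA that takes on particular weight in the chicken, which lacks RIG-I. IFIH1 was listed at 4.74, 5.18 and 6.12 FPKM in fiber replicates 1, 2 and 3, against 0.168, 0.192 and 0.227 FPKM in epithelial replicates 1, 2 and 3. It averaged 5.35 ± 0.703 FPKM in fiber cells and 0.196 ± 0.0297 FPKM in epithelial cells (SD, n = 3 each), a log2 fold change of 4.20. The highest library of each cell type was replicate 3.

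IFIH1 is induced by interferon in other tissues, as are many of the antiviral genes compared with it. Of 26 found, 14 were tested, of which none was called higher, 11 were called lower and 3 were not called. Their median log2 fold change was -0.90, beside shares of 13.1% higher and 57.7% lower over all tested entries. MAVS, the mitochondrial adaptor through which MDA5 signals, had 2.64 ± 0.176 FPKM in fiber cells and 3.57 ± 0.203 FPKM in epithelial cells (SD, n = 3 each; limma, log2 fold change -0.42, adjusted p = 0.00884), and after centring it was not called and its log2 fold change was 0.19. DHX58, the related receptor LGP2, was low in both, at 0.0151 ± 0.0131 FPKM in fiber cells and 0.0765 ± 0.0499 FPKM in epithelial cells (SD, n = 3 each). The interferon-induced gene IFIT5 had 1.03 ± 0.529 FPKM in fiber cells and 3.85 ± 0.908 FPKM in epithelial cells (SD, n = 3 each; limma, adjusted p = 0.00203). Its values were carried by 4 other entries as well, so they cannot be assigned to IFIT5 alone. TRIM25, a ubiquitin ligase of the RIG-I pathway, fell by 2.68 on the log2 scale. Among the genes not tested, MX1 was at 0.198, 0.296 and 0.210 FPKM in fiber replicates 1, 2 and 3. It was listed at 0 in all epithelial libraries. CMPK2 went the other way, at 0 in all fiber libraries and 0.0601, 0.206 and 0.134 FPKM in epithelial replicates 1, 2 and 3. After centring, 2 genes were called higher and 5 lower, against 30.2% and 29.3% of all tested entries.

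ESRRB (ENSGALG00000041775) encodes an orphan nuclear receptor related to the estrogen receptors, known for its part in mouse embryonic stem cells and placenta. ESRRB was listed at 3.93, 4.04 and 3.83 FPKM in fiber replicates 1, 2 and 3, against 0.106, 0.259 and 0.182 FPKM in epithelial replicates 1, 2 and 3. It had the smallest log2 fold change of the 14 genes, 3.87, and the closest fiber libraries, with a coefficient of variation of 2.60%. Its relative ESRRG, looked up after the values were seen, had 1.78 ± 0.246 FPKM in fiber cells and 1.89 ± 0.190 FPKM in epithelial cells (SD, n = 3 each; limma, log2 fold change -0.09, adjusted p = 0.623) and was called higher only after centring. ESR1 was listed at 0 in all libraries and ESR2 averaged 0.0230 FPKM in fiber cells and 0.0251 FPKM in epithelial cells.

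SAMD10 (ENSGALG00000006007) encodes a protein with a sterile alpha motif, a module that binds other proteins. The gene is placed in this group for order only, and no role in the nucleus or in RNA sensing is known here. SAMD10 was listed at 9.52, 14.8 and 10.3 FPKM in fiber replicates 1, 2 and 3, against 0.104, 0.0496 and 0.0601 FPKM in epithelial replicates 1, 2 and 3. It averaged 11.6 ± 2.84 FPKM in fiber cells and 0.0714 ± 0.0291 FPKM in epithelial cells (SD, n = 3 each), a log2 fold change of 6.07. This was the second largest fold change of the 14 genes after that of MFSD2B.

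**Figure D3:**
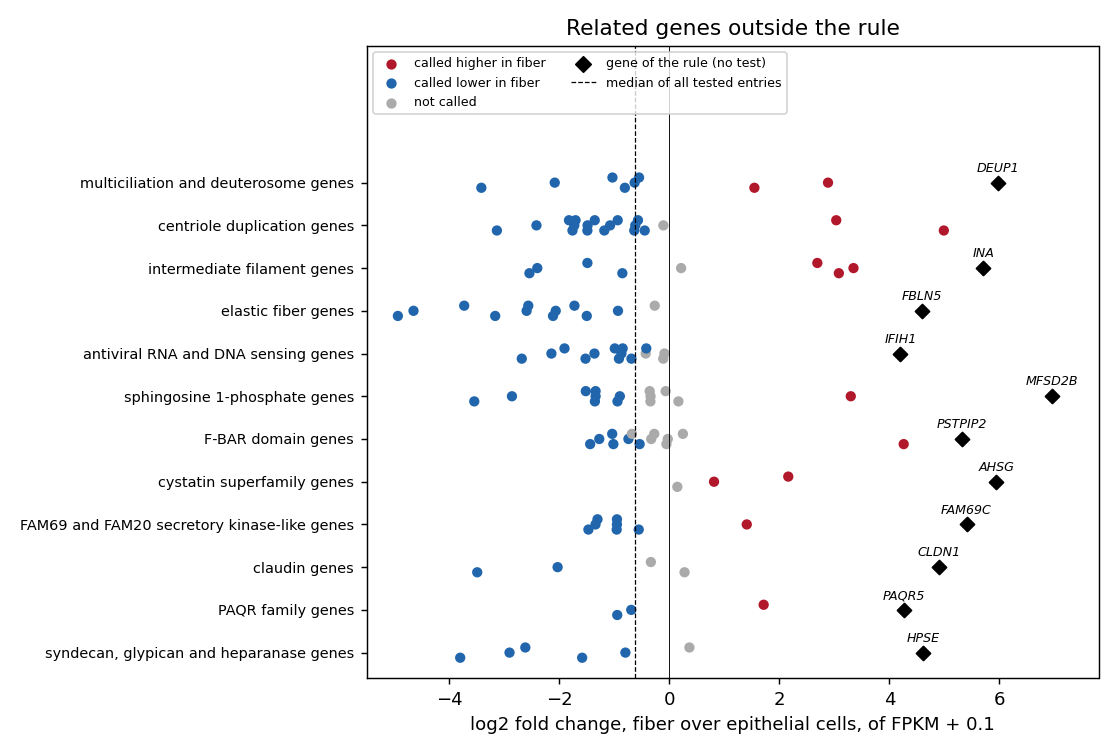
Log2 fold change of fiber over epithelial cells, on the scale of log2(FPKM + 0.1), for tested genes of the pathways and families around the 14 genes. Colors mark genes called higher in fiber cells (red), called lower (blue) or not called (gray) by limma. The chosen gene of a list is a black diamond without a test, and the list of centriole duplication genes has none. The dashed line is the median of all tested entries, -0.62. The lists of transcription factors, fibulins and estrogen receptor relatives are not drawn. The diamonds drawn lie between 4.20 for IFIH1 and 6.95 for MFSD2B, and the red points drawn reach 4.99 for SASS6.

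The 10 pathway lists were chosen with earlier results of these data known. Over them, 19 genes outside the 14 were called higher in fiber cells and 75 lower. These are counts, and the number tested is given with each list. The shares over all tested entries were 13.1% higher and 57.7% lower. The counts were 35 and 47 after centring each library on its median, which called 30.2% of all tested entries higher and 29.3% lower. The list of candidate transcription factors of fiber cells had the most genes called higher of the 10 lists, and also the most genes tested. Of 25 found, 23 were tested, of which 8 were called higher, 6 lower and 9 were not called, the median of their log2 fold changes being 0.10. HSF4, the heat shock factor of the lens, had 45.4 ± 5.63 FPKM in fiber cells and 1.30 ± 0.442 FPKM in epithelial cells (SD, n = 3 each; limma, log2 fold change 5.07, adjusted p = 1.76e-06). LMO2, a bridging protein of blood transcription complexes, had 36.9 ± 4.20 FPKM in fiber cells and 1.77 ± 0.2504 FPKM in epithelial cells (SD, n = 3 each; limma, log2 fold change 4.31, adjusted p = 5.4e-07). STAT4 had 6.41 ± 0.559 FPKM in fiber cells and 0.793 ± 0.191 FPKM in epithelial cells (SD, n = 3 each; limma, log2 fold change 2.88, adjusted p = 6.35e-06). PAX6, which specifies the lens, fell by 2.18, HIF1A by 2.04 and RXRA by 2.23 on the log2 scale. After centring, 14 of these factors were called higher and 3 lower.

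Within the fiber cells the 14 genes did not vary alike. The coefficient of variation over the fiber libraries ran from 2.60% to 27.0%, with a median of 10.3%. Replicate 2 was the highest fiber library for 10 of the 14 genes, replicate 1 for 2 (CLDN1 and PSTPIP2) and replicate 3 for 2 (FBLN5 and IFIH1). Over all tested entries, replicate 2 was the highest fiber library in 25.4%, replicate 1 in 33.5% and replicate 3 in 41.2%. Over the 1401 other entries called higher in fiber cells, replicate 2 was the highest in 49.7%, replicate 1 in 17.8% and replicate 3 in 32.5%. DEUP1, SAMD10, AHSG and HPSE stood out most in replicate 2, at 1.31, 1.28, 1.28 and 1.19 times their own fiber means. Fiber replicate 2 also had the largest FPKM sum, 232329, and the fewest entries at or above 1 FPKM, 8648, and the part of this in its high values was not tested. Without fiber replicate 2 the same thresholds gave 14 loci, a count that could not fall because the rule required every library to pass.

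**Figure D4:**
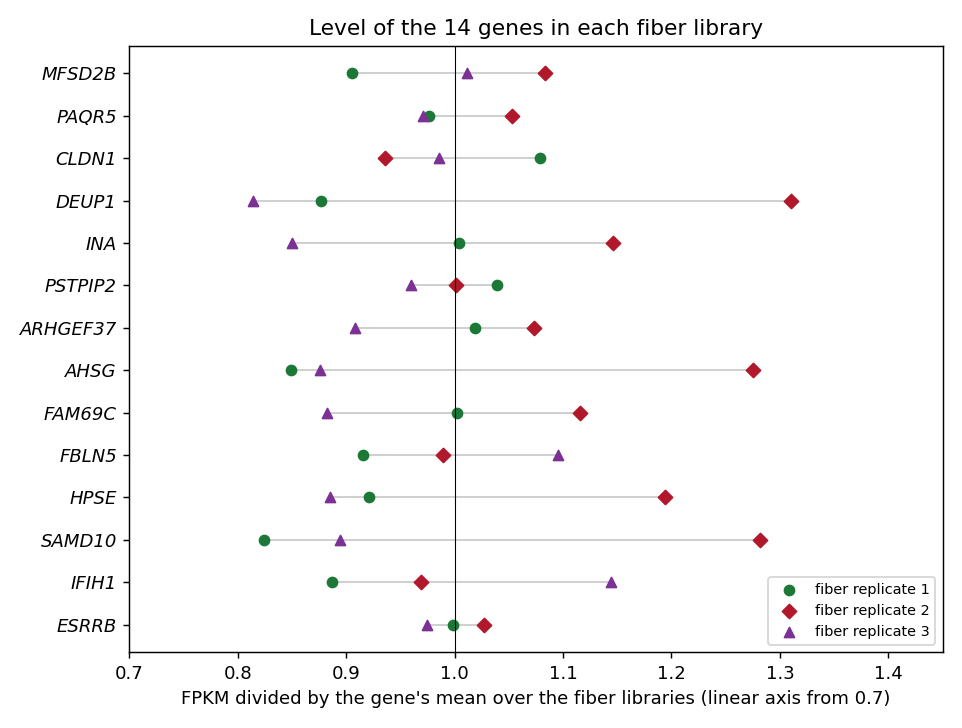
FPKM of each of the 14 genes in fiber replicates 1 (green circles), 2 (red diamonds) and 3 (purple triangles), divided by the gene's mean over these libraries (linear axis), with a line at 1. Replicate 2 is highest for 10 genes, and DEUP1 in replicate 2 lies furthest from 1, at 1.31.

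The genes next to the 14 on the chromosomes were also compared, as a feature that the rule did not use. All 14 genes were found by symbol in the RefSeq annotation of the chicken (GRCg7b). Their 28 neighbors were the nearest protein-coding genes before and after each, and 25 of these were found among the deposited entries. Of these, 19 were tested, of which 5 were called higher in fiber cells, 11 lower and 3 were not called, the median of their log2 fold changes being -0.57. A further 5 were below 0.5 FPKM in all libraries. Of all tested entries, 13.1% were called higher and 57.7% lower. After centring, 8 neighbors were called higher and 5 lower, where 30.2% and 29.3% of all tested entries were.

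Beside INA, NT5C2, a nucleotidase, had 84.5, 93.3 and 93.0 FPKM in fiber replicates 1, 2 and 3, against 4.55, 4.82 and 6.36 FPKM in epithelial replicates 1, 2 and 3, a log2 fold change of 4.09. Beside MFSD2B, UBXN2A, an adaptor of the p97 ATPase, averaged 38.2 FPKM in fiber cells and 9.34 FPKM in epithelial cells, a log2 fold change of 2.02. CNDP2 beside FAM69C, MRPS18C beside HPSE and CSNK1A1 beside ARHGEF37 were also called higher, with log2 fold changes of 0.91, 0.88 and 0.59. KIF23 beside PAQR5 and P3H2 beside CLDN1 were called lower, with log2 fold changes of -2.25 and -2.33. CLDN16, the claudin next to CLDN1, was listed at 0 in all 6 libraries.

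**Figure D5:**
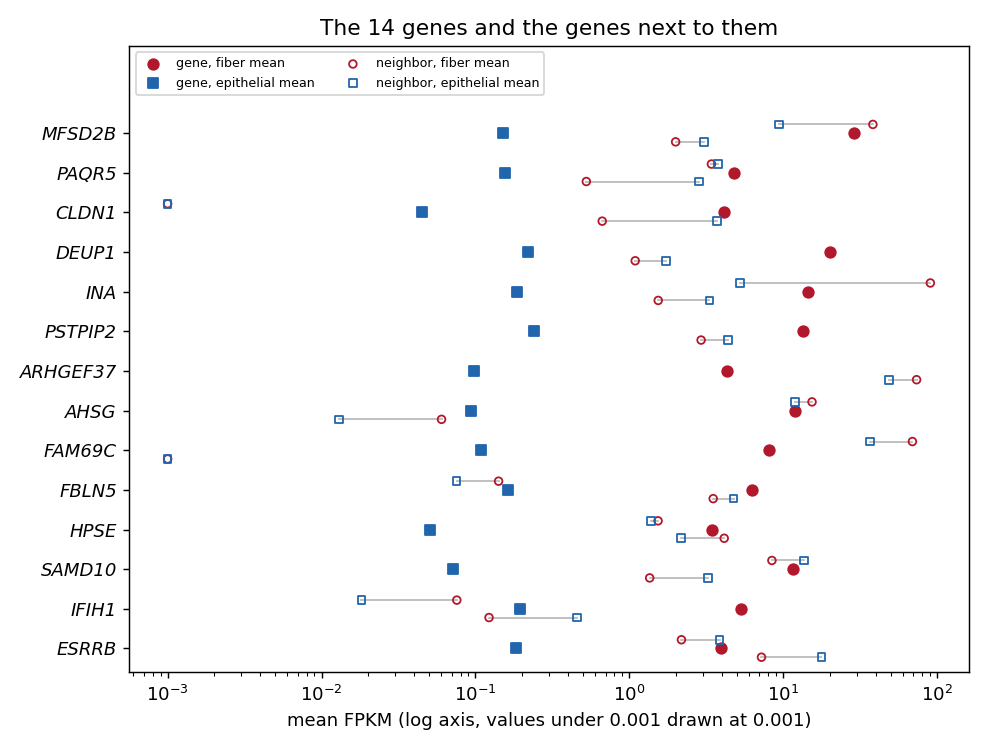
Mean FPKM (log axis, n = 3 libraries each) of the 14 genes in fiber cells (filled red circles) and epithelial cells (filled blue squares), and of the nearest protein-coding genes before (above) and after (below) each in RefSeq order (open symbols joined by a gray line). NT5C2 beside INA shows the widest difference among neighbors called higher, 90.2 FPKM in fiber cells and 5.25 FPKM in epithelial cells.

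Some genes lay just outside the thresholds. On the fiber side the lowest value of a chosen gene was 3.05 FPKM, for HPSE in replicate 3, and on the epithelial side the highest values were 0.291 FPKM, for INA in replicate 3 and PSTPIP2 in replicate 2. There were 13 genes that missed by a single library or by values within 20% of a threshold, of which 8 missed on the epithelial side, 3 on the fiber side and 2 on both, and 9 missed in 1 library only. UPP1, a uridine phosphorylase, had 18.2, 23.0 and 20.2 FPKM in fiber replicates 1, 2 and 3, against 0.384, 0.527 and 0.371 FPKM in epithelial replicates 1, 2 and 3. HSPB8, a small heat shock protein, reached 0.854 FPKM in epithelial replicate 3 and averaged 20.1 FPKM in fiber cells. Both genes were expressed in fiber cells at levels above those of INA and PSTPIP2.

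TENT5B, a poly(A) polymerase, averaged 11.7 FPKM in fiber cells and had 2.08, 0.230 and 0.219 FPKM in epithelial replicates 1, 2 and 3. LGI3, a secreted leucine-rich protein, had 4.20 FPKM in each fiber library and exceeded the threshold with 0.542 FPKM in epithelial replicate 3. MDFI, an inhibitor of myogenic factors, missed on both sides. It had exactly 0.5 FPKM in epithelial replicate 3, and 2.70 and 2.89 FPKM in fiber replicates 1 and 3. EPHB1, an ephrin receptor, and ST8SIA5, a sialyltransferase, fell short of 3 FPKM in fiber replicate 1, at 2.82 and 2.79 FPKM. RANBP3L, NECTIN4, RASGRP3 and FN3K were also among the 13 genes.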

How the data were processed

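RNA was measured in 3 fiber and 3 epithelial libraries of White leghorn lenses at embryonic day 13, grouped by the cell type in the labels. According to the study's methods, the authors prepared stranded total RNA libraries, trimmed reads with Cutadapt, mapped them to galGal6 with Bowtie2 and HISAT2, assembled transcripts with StringTie and gffcompare and estimated expression with edgeR. The authors deposited FPKM per library, their averages per cell type, the ratio (fold change) of these averages, its log2 value, and p-values and q-values of their own test. Only the FPKM of the 6 libraries were used. The deposited values hold no read counts and list 0 as 0.0001.

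Entries averaging 0.5 FPKM or more over the 6 libraries (10818) were analyzed as log2(FPKM + 0.1). The fit used limma 3.58.1 in R 4.3.3 with its mean-variance trend and cell type as the only term, with p-values adjusted by the Benjamini-Hochberg method over all tested entries. Calls needed an adjusted p below 0.05 together with a log2 fold change larger than 0.4 in either direction. The study describes the libraries as biological replicates, each from a pool of lenses. The p-values set the difference between cell types against the spread between libraries of the same cell type, without pairing. Centring set the median of each library over the tested entries to the same value. Tables were made with pandas 2.3.3 and figures with matplotlib 3.10.9. The fit was tested on simulated data.

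The 14 genes and all lists were chosen with earlier results of these data known. The text names every one of the 14 genes, genes that missed in 1 library or by 20% of a threshold, up to 4 called genes with the largest fold change in each direction per pathway list (others named beside them were chosen after their values were seen), and neighbors of the 14 genes in RefSeq order. The RefSeq table is of the GRCg7b assembly, so it was used for names and order of protein-coding genes only, and no sequences are shown. The alternatives were other pseudocounts, filters, scalings and thresholds, a replicate block, and leaving out each library. Methylation and chromatin data of the study were not analysed here. A few genes are not reported here.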

Additional observations from a re-analysis of the deposited data

How the results depend on the processing

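The number of loci that met the thresholds was 14, and it was 8 with at least 5 FPKM in fiber libraries, 38 with less than 1 FPKM in epithelial libraries and 24 after centring each library on its median. Leaving out each library in turn gave 14 to 18 loci. The rule required every library to pass, so leaving out a library could only keep or add loci. The median log2 fold change of the 14 genes relative to the median gene was 5.72, and it was 3.33 with 1 FPKM added and 6.98 with 0.01 FPKM added. Leaving out each library gave 5.65 to 5.78. Over 195 refits of the 14 genes the log2 fold changes lay between 2.06 and 7.77. None changed sign, which is no test, since the rule used the same values and so fixed the sign in advance. The scaling moved the counts over all entries most. Calls higher in fiber cells were 1415 as deposited, 3263 after centring (30.2% of the entries) and 2884 after quantile normalization, and calls lower were 6240, 3167 (29.3%) and 3228. Pathway genes called higher were 19, 35 and 29, and those called lower 75, 47 and 45. Of 60 named pathway and family genes, 11 lost their call in some alternative, 7 of them under centring, and none changed direction past the thresholds. According to the study's methods, the lenses of a replicate were dissected into both cell types. The labels do not say whether the same number marks the same pool, and the main fit did not pair the libraries. Correlations of deviations from the group means were 0.0858, 0.0659 and 0.0666 for the same number. For different numbers they ran from -0.0495 to -0.0235, so each library correlated best with its own number. These correlations cannot show that the libraries were unpaired. With a replicate block, 1436 entries were called higher and 6268 lower, with 19 and 77 pathway genes. The depth is unknown, so epithelial values near 0 carry no interval.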

Other observations

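The same thresholds were also met by entries that the symbol rule left out. There were 7 entries without a symbol at 5 loci, of which 6 entries at 4 loci shared no values with the 14 genes. ENSGALG00000055067 had 8.78, 10.9 and 9.54 FPKM in fiber replicates 1, 2 and 3, against 0.107, 0.101 and 0.0736 FPKM in epithelial replicates 1, 2 and 3. ENSGALG00000034204 had 7.73, 8.395 and 10.2 FPKM in fiber replicates 1, 2 and 3, against 0.249, 0.204 and 0.171 FPKM in epithelial replicates 1, 2 and 3. Both were in the range of FAM69C and AHSG, and what they encode is not known here.

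Of the symbols left out by their first letters, HBZ alone met the thresholds, with 7.50, 6.73 and 5.29 FPKM in fiber replicates 1, 2 and 3, against 0, 0.0774 and 0 FPKM in epithelial replicates 1, 2 and 3. HBAA missed in a single library, with 4.03, 6.59 and 2.22 FPKM in fiber replicates 1, 2 and 3, and so did CLIC5, a chloride intracellular channel gene, with 46.3, 49.2 and 55.8 FPKM in fiber replicates 1, 2 and 3 and 0.640 FPKM in epithelial replicate 3.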
